A study of Betula luminifera with 4 samples.

Results

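Basic helix-loop-helix (bHLH) transcription factors were examined in the birch Betula luminifera with and without phosphate. A gene of the assembled transcriptome counted as a member when it had a plant match, that is, an Arabidopsis thaliana protein in Swiss-Prot or a walnut (Juglans) protein in the Nr database, and when its protein name held "transcription factor bHLH", "transcription factor MYC" or "transcription factor PIF". This gave 83 of 76899 genes, among 26828 plant-matched genes. The plants were all of 1 clone, G49#, raised in tissue culture and then potted in sterilized sand. LP plants received a mineral medium without phosphate, in which potassium sulfate replaced the potassium of the missing salt. CK plants received the same medium with 1.25 mM KH2PO4. All were seedlings 2 months old when potted and had first had 2 weeks of normal medium and then 2 weeks of deionized water. There was 1 root library and 1 shoot library per medium (LP roots, CK roots, LP shoots, CK shoots), and each shoot library held stem and leaf RNA in equal amounts. The experiment used 54 plants; how many stood behind each library is not given in the sources used here.

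bHLH proteins bind DNA as dimers, in which the basic region contacts an E-box and the helix-loop-helix holds the partners together. In Arabidopsis, where most of the roles below were worked out, the family includes the MYC factors of jasmonate signalling, the phytochrome-interacting factors (PIFs) that drive growth in the dark and in shade, the regulators of iron uptake, the factors that set up stomata, and those that drive cell division in young vascular tissue. The names here rest on sequence matches, so a role is that of the Arabidopsis protein and was not measured in birch.

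Levels are TPM, a gene's share of all transcripts of a library after division by contig length. With 1 library per group there was no spread between replicates, so no test was possible and every difference is between these libraries. The size rule called a member higher or lower if it reached 1 TPM in either library compared and if the log2 ratio, with 1 TPM added to each level, was 1 or more in size. By the steps in which low values rise, 3 fragments of a 400 bp contig were worth 0.266 TPM for LP roots, 0.509 TPM for CK roots, 0.524 TPM for LP shoots and 0.626 TPM for CK shoots. At 10 TPM such a contig had a counting error of 9.42%, 13.0%, 13.2% and 14.4% in that order of libraries.

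The root libraries differed from each other in ways that touch every root ratio. Plant-matched genes held 40.5% of the TPM in LP roots and 52.2% in CK roots, against 59.7% in LP shoots and 63.8% in CK shoots. Over the 11284 plant-matched genes that reached 1 TPM in each of the 4 libraries, LP roots lay 0.62 log2 units below CK roots and LP shoots 0.12 above CK shoots; values called scaled are relative to these shifts. The LP root library listed 56647 genes above 0, against 26711 in CK roots. Genes matched to yeast held 3.03% of the TPM in LP roots and 1.35% in CK roots, and those matched to animals 1.33% and 1.51%. At 1 TPM or more there were 1468 yeast-matched genes in LP roots and 184 in CK roots. Animal-matched genes numbered 1934 and 328 in the same libraries. The part of these differences in the results was not tested. In whole organs, fewer cells of a type and less RNA per cell cannot be told apart. Of the shoot markers (light-harvesting, photosystem and Rubisco genes), 28 of 32 were lower in CK roots than in CK shoots. The 7 root markers were split: of the 4 that reached 1 TPM under CK, 2 were higher and 2 lower in roots, and of the 7 under LP 3 were higher and 3 lower. Casparian strip membrane protein 1 stood at 20.0 TPM in LP roots and 94.4 TPM in CK roots, against 0.08 TPM in LP shoots and 0 in CK shoots, and the nitrate transporter NRT2.1 was likewise higher in roots. The 3 nitrate transporter 2.7 contigs, of 209 to 573 bp, were listed at 0 in both root libraries and reached 11.8 TPM in shoots. No RSL root hair factor was found.

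The members carried 52 different protein names. Of these, 20 names were shared by several contigs, 51 contigs in all, most often bHLH30 and bHLH110 with 5 contigs each and bHLH130 with 4. Contigs of 1 name may be parts of 1 gene or separate genes, and reads may be split among them, so each is given with its length. Lengths ran between 205 and 4565 bp with a median of 1009 bp, and 15 members were under 400 bp. Of the 69 members named by Swiss-Prot, 47 had the same name in Nr, 14 had another bHLH name and 8 had a name that was not of the family; a further 14 were named from Nr alone.

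The protein domains listed beside the genes bear on how far these names hold. A helix-loop-helix domain was listed for 43 members, and an N-terminal MYC domain without it for 8. No domain was listed for 28, and 4 carried another domain. These 4 were the 3 contigs named bHLH140, with Macro, DcpS_C and GPCR_chapero_1 domains, and the MYC2 contig of 4565 bp. That long MYC2 contig carried a UTP25 domain, matched a U3 small nucleolar RNA-associated protein in Nr, and had 15 assembled transcripts. Its level may therefore be only in part that of MYC2. The contig named MYC4 matched MYC2 in Nr and had no listed domain, and the assembly grouped it with a nitrate transporter 2.7 contig. bHLH100 carried a helix-loop-helix domain but matched an uncharacterized protein in Nr, and it was grouped with photosystem I subunit psaK. The bHLH94 contig of 1164 bp, also with the domain, was grouped with photosystem I subunit IX.

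In level, the members summed to 964 TPM in LP roots and 1810 TPM in CK roots, and to 1934 TPM in LP shoots and 1901 TPM in CK shoots. The median member stood at 2.86 TPM in LP and 5.02 TPM in CK roots, and at 11.1 TPM in LP and 12.3 TPM in CK shoots. All plant-matched genes had medians of 4.05, 3.08, 10.6 and 10.9 TPM in the same libraries. The 10 most abundant members held 67.3% of the members' TPM in LP and 59.8% in CK roots, and 47.0% in LP and 47.8% in CK shoots. Above 0 in all 4 libraries were 49 members, and 7 were above 0 in a single library. The heat map of levels shows sets that were low in CK roots, among them the PIFs and the stomatal group.

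**Figure D1:**
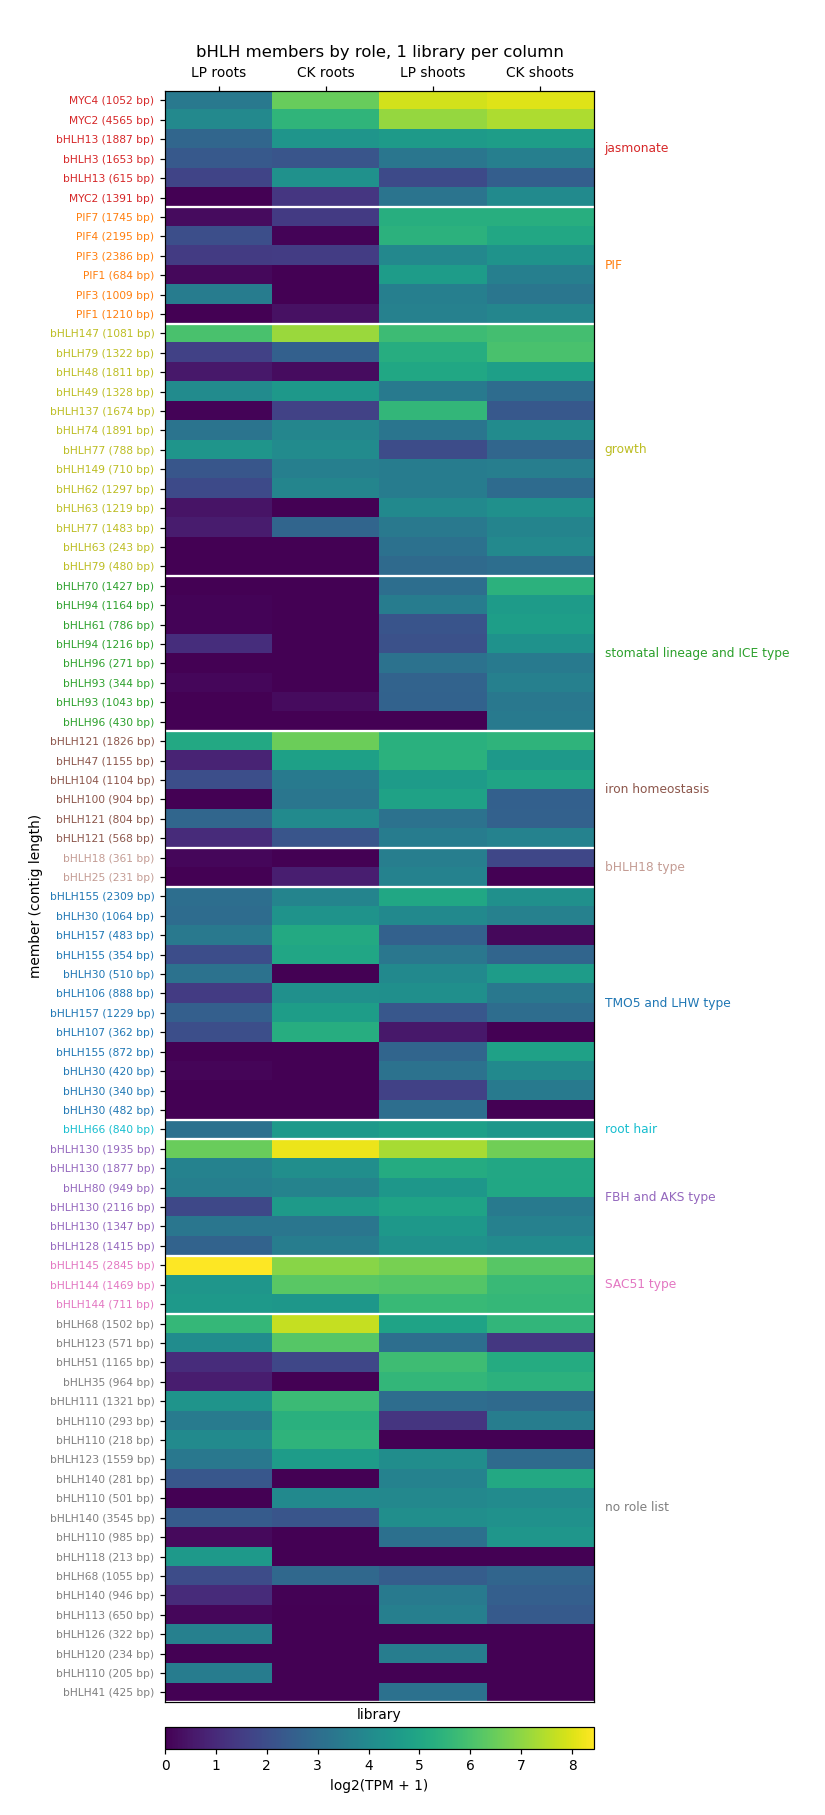
Level of each of the 83 members as log2(TPM + 1), with 1 column per library (LP roots, CK roots, LP shoots, CK shoots) and 1 row per contig, grouped by the role of the Arabidopsis protein. Among the brightest cells are bHLH145 in LP roots (344 TPM), bHLH130 of 1935 bp in CK roots (289 TPM) and MYC4 in both shoot libraries (231 and 261 TPM).

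The first question was how roots without phosphate differed from phosphate-fed roots. Members were mostly lower: 34 of the 59 members that reached 1 TPM in a root library were lower in LP roots, 9 were higher and 16 were neither, while the other 24 of the 83 stayed under 1 TPM in both. Among all plant-matched genes reaching 1 TPM, 35.3% were lower and 35.7% higher, and among all genes 22.4% were lower and 64.2% higher. As shares, 57.6% of the 59 members were lower and 15.3% higher. Their median log2 ratio was -1.28, against -0.11 for plant-matched genes. The shares lay closer at larger differences. At or below a log2 ratio of -2 were 22.03% of members and 19.95% of plant-matched genes, and at or below -3 8.47% and 10.5%. With scaling, 22 members were lower and 10 higher, with a median of -0.79; 26.7% of plant-matched genes were then lower and 42.6% higher, with a median of 0.49. Among genes above 0 in both root libraries, 31 of 49 members were lower and 2 higher, against 40.2% lower and 19.2% higher among plant-matched genes, and the medians were -1.38 for members and -0.58 for plant-matched genes. Of the 9 higher members 7 were listed at 0 in CK roots. The root counts of the role groups below stand beside these shares.

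**Figure D2:**
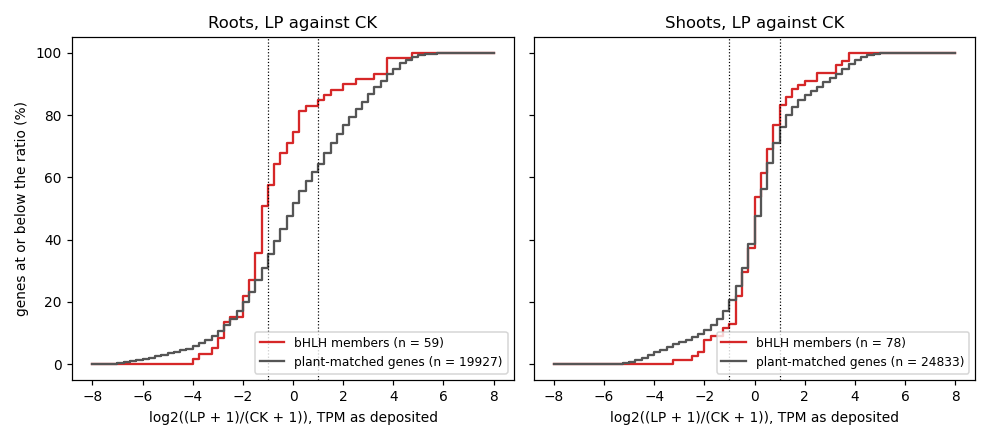
Cumulative share of genes (%, vertical axis) at or below a log2 ratio of LP over CK (horizontal axis, TPM with 1 added) in roots (left) and shoots (right), for members and for all plant-matched genes that reached 1 TPM; dotted lines mark the size rule. In roots 57.6% of members lie at or below -1, against 35.3% of plant-matched genes, while in shoots the values are 12.8% and 20.5%.

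Among the jasmonate factors, 5 of 6 were lower in LP roots and none higher. MYC4, which with MYC2 switches on jasmonate-responsive defence genes, stood at 9.62 TPM in LP roots and 86.9 TPM in CK roots, a 9.03-fold lower level (log2 ratio -3.05, -2.47 when scaled). In LP and CK shoots the same contig had 231 and 261 TPM, close to each other. The long MYC2 contig was at 14.8 TPM in LP roots and 44.6 TPM in CK roots (-1.53); its scaled ratio of -0.94 missed the rule. The MYC2 contig of 1391 bp, the one with an N-terminal MYC domain, was listed at 0 in LP roots and at 1.53 TPM in CK roots. bHLH13, a repressor that competes with the MYC factors, was lower in both of its contigs. The contig of 615 bp stood at 2.31 TPM in LP roots and 18.4 TPM in CK roots, and that of 1887 bp at 5.84 and 19.9 TPM in the same libraries. Their log2 ratios were -2.55 and -1.61. bHLH3, a repressor of the same type, did not follow, with 4.11 TPM in LP roots and 3.72 TPM in CK roots.

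All 6 members tied to iron were lower in LP roots as deposited, but only bHLH47 and bHLH100 stayed so after scaling. bHLH47, known as POPEYE, which represses iron transport and storage genes in iron-starved Arabidopsis roots, was at 0.79 TPM in LP roots and 26.5 TPM in CK roots (log2 ratio -3.94). bHLH100, induced in Arabidopsis when iron is short, was listed at 0 in LP roots and at 8.83 TPM in CK roots. bHLH121, which acts upstream of both in that network, had 3 contigs. The longest, of 1826 bp, had 33.3 TPM in LP roots and 92.0 TPM in CK roots (-1.44, -0.83 when scaled). bHLH47 and bHLH100 thus had the lowest ratios of the 6, that of bHLH100 resting on the pseudocount. ORG2, a close relative of bHLH100 outside the members, went the other way, with 6.42 TPM in LP roots and 0.40 TPM in CK roots (2.41). bHLH104, another activator of the network, stood at 3.11 and 9.83 TPM in LP and CK roots (-1.40, -0.90 when scaled).

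Factors of the TMO5 and LONESOME HIGHWAY type, whose dimers drive divisions of vascular precursor cells, had 6 members lower in LP roots and 1 higher, of 12 members of which 8 reached 1 TPM. bHLH106 stood at 1.76 TPM in LP roots and 17.9 TPM in CK roots, bHLH107 at 3.08 and 37.0 TPM, and a bHLH155 contig of 354 bp at 3.02 and 30.6 TPM. The first was 10.2-fold and the last 10.1-fold lower in LP roots, and each stayed lower when scaled, with log2 ratios of -2.34, -2.71 and -2.47. Both bHLH157 contigs were lower as well, the longer at 4.85 TPM in LP roots and 24.8 TPM in CK roots. A bHLH30 contig of 510 bp was the exception, listed at 8.09 TPM in LP roots and at 0 in CK roots, while the longest bHLH30 contig, of 1064 bp, had 6.97 and 18.9 TPM and lost its call when scaled.

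The most abundant members differed in both directions in roots. bHLH145, of the SAC51 type that in Arabidopsis mediates the response of xylem to thermospermine, stood at 344 TPM in LP roots and 121 TPM in CK roots, 2.84-fold higher (log2 ratio 1.5, 2.12 when scaled). It was the only higher member among the 10 most abundant. bHLH144, of the same type, had 20.7 TPM in LP roots and 76.1 TPM in CK roots for the contig of 1469 bp, but 22.6 and 20.9 TPM for that of 711 bp. The contigs of the type thus differed in direction.

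bHLH130, known as AKS2 and FBH4 and active in stomatal opening and flowering, had the highest level in CK roots. Its contig of 1935 bp stood at 89.4 TPM in LP roots and 289 TPM in CK roots, 3.23-fold lower (log2 ratio -1.68, -1.07 when scaled). A second contig, of 2116 bp, had 2.52 TPM in LP roots and 22.9 TPM in CK roots. The other 2 bHLH130 contigs differed little, with 12.4 against 16.9 TPM and 9.0 against 8.89 TPM in LP and CK roots. bHLH68 of 1502 bp followed the first pair, at 48.5 TPM in LP roots and 204 TPM in CK roots (-2.05, -1.44 when scaled), while its contig of 1055 bp, at 2.86 and 6.25 TPM, stayed within the rule. bHLH123 of 571 bp was also lower, with 16.0 TPM in LP roots and 73.0 TPM in CK roots (-2.12, -1.53 when scaled).

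Growth regulators were the group that holds cryptochrome-interacting factors and the partners and inhibitors of brassinosteroid-driven elongation. They had 5 members lower in LP roots and none higher, of 13 members of which 9 reached 1 TPM. Scaling left 3 lower. Over all tested members 57.6% were lower as deposited and 37.3% when scaled, and over plant-matched genes 35.3% and 26.7%. Higher as deposited were 15.3% of members and 35.7% of plant-matched genes. bHLH147, an atypical member that inhibits elongation, stood at 63.9 TPM in LP roots and 143 TPM in CK roots (log2 ratio -1.15, -0.53 when scaled). bHLH62, of the same subfamily as the cryptochrome-interacting factors, had 2.69 and 13.4 TPM in LP and CK roots (-1.96). bHLH49, which activates elongation genes, stayed within the rule at 15.8 TPM in LP roots and 21.4 TPM in CK roots. The root hair factor bHLH66, the only one of its list found, had 7.79 TPM in LP roots and 22.4 TPM in CK roots (-1.41, -0.85 when scaled).

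Higher in LP roots were, besides bHLH145 and the bHLH30 contig, PIF3, PIF4, bHLH94, bHLH110, bHLH118, bHLH126 and bHLH140, each by 1 contig. PIF3 of 1009 bp, a factor that holds back greening in the dark, stood at 10.6 TPM in LP roots and was listed at 0 in CK roots; its longer contig, of 2386 bp, had 1.77 and 1.80 TPM. PIF4, which drives elongation in warmth, had 3.06 TPM in LP roots and 0.05 TPM in CK roots. PIF7, which acts in shade avoidance, went the other way at low level, with 0.18 TPM in LP roots and 1.67 TPM in CK roots (log2 ratio -1.18). The contigs of bHLH110 (205 bp, 10.7 TPM), bHLH118 (213 bp, 22.5 TPM) and bHLH126 (322 bp, 11.8 TPM) were above 0 in LP roots and listed at 0 in the other 3 libraries. This bHLH110 contig was named from Nr alone, without a listed domain, and the assembly grouped it with Casparian strip membrane protein 1. In all, 4 of the 9 higher contigs were under 400 bp, against 4 of the 34 lower ones. Beside the PIF values, the 33 shoot markers summed to 3903 TPM in LP roots and 451 TPM in CK roots, with 12 higher and 7 lower; without the light-harvesting contig that held 3698 and 187 TPM of these, the sums were 204 and 264 TPM. Their part in the PIF values was not tested.

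**Figure D3:**
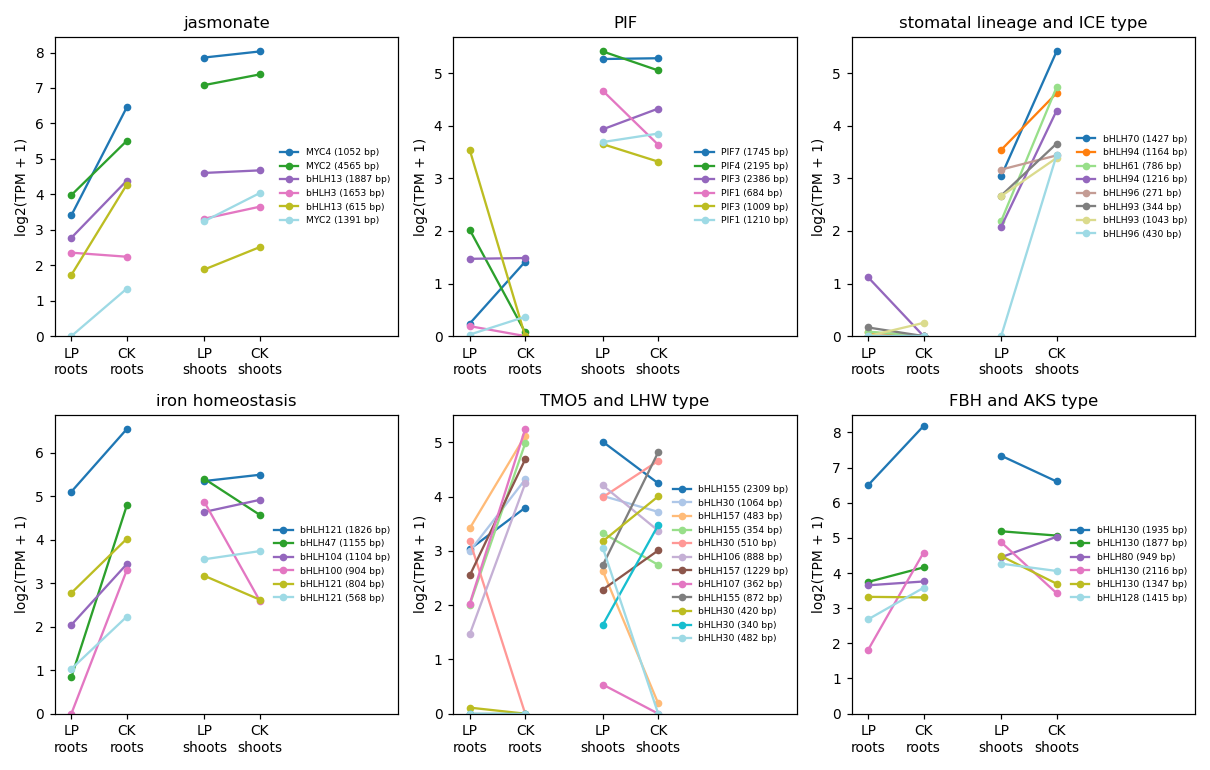
Levels as log2(TPM + 1) in LP roots, CK roots, LP shoots and CK shoots for 6 role groups, 1 line per contig joining the LP and CK library of an organ, with no error bars since each point is 1 library. Jasmonate and iron contigs sit lower in LP roots than in CK roots except bHLH3 (4.11 and 3.72 TPM), and all 8 contigs of the stomatal group sit lower in LP shoots than in CK shoots.

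In shoots the members stayed closer to each other in the LP and CK libraries. Of the 78 members that reached 1 TPM in a shoot library, 13 were higher in LP shoots, 10 were lower and 55 were neither, so 16.7% were higher and 12.8% lower. Among plant-matched genes 23.9% were higher and 20.5% lower, and among all genes 40.1% were higher and 23% lower. The median log2 ratio was -0.09 for members and 0.07 for plant-matched genes. Scaling gave 12 higher and 11 lower members, against 21.8% higher and 21.9% lower of plant-matched genes.

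Of the 10 lower members in LP shoots, 5 belonged to the 8 stomatal lineage and ICE-type factors, where none was higher and the median log2 ratio was -1.64. bHLH70, of the subfamily that includes the stomatal regulators SPEECHLESS, MUTE and FAMA, stood at 7.24 TPM in LP shoots and 41.6 TPM in CK shoots, 5.75-fold lower (-2.37). bHLH94, of the same subfamily, had 3.23 TPM in LP shoots and 18.5 TPM in CK shoots for the contig of 1216 bp, and 10.6 and 23.6 TPM for that of 1164 bp. bHLH61, named SCREAM2-like in Nr after a partner of those regulators, had 3.56 TPM in LP shoots and 25.6 TPM in CK shoots (-2.54). A bHLH96 contig of 430 bp was listed at 0 in LP shoots and at 9.86 TPM in CK shoots. The remaining 3 contigs also had their smaller value in LP shoots, but short of the rule as deposited: bHLH93 had 5.37 against 11.7 TPM and 5.33 against 9.47 TPM, and the second bHLH96 contig 7.98 against 9.83 TPM. The bHLH93 contig of 344 bp, with the larger gap, passed the rule when scaled, which made 6 of 8 lower. All 8 were at or below 1.17 TPM in both root libraries.

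The same direction was seen in several, but not all, stomatal factors that the databases name otherwise. SPEECHLESS, which starts the stomatal lineage, and MUTE, which ends its divisions, were listed at 0 in LP shoots and at 20.0 and 10.0 TPM in CK shoots, on contigs of 395 and 256 bp. ICE1, the partner of both, was lower in 2 of 3 contigs; the longest, of 2156 bp, had 22.3 TPM in LP shoots and 49.9 TPM in CK shoots (log2 ratio -1.13). FAMA, which acts last in the lineage and is named here after its values were seen, had 7.29 TPM in LP shoots and 6.63 TPM in CK shoots. The FAMA contig thus stayed within the rule, and a difference between stages of the lineage was not tested.

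Of the growth regulators 1 of 13 was higher in LP shoots and none lower. bHLH137, a relative of the cryptochrome-interacting factors, stood at 46.8 TPM in LP shoots and 4.0 TPM in CK shoots, 11.7-fold higher (log2 ratio 3.26). bHLH79 of 1322 bp, the most abundant of the group in CK shoots, had 36.9 TPM in LP shoots and 63.2 TPM in CK shoots (-0.76), which the rule leaves uncalled. The cryptochrome partner bHLH63 had 14.98 TPM in LP shoots and 17.6 TPM in CK shoots for the contig of 1219 bp, and 7.8 and 14.5 TPM for that of 243 bp (-0.81). The flowering-related bHLH48 had 31.4 TPM in LP shoots and 26.3 TPM in CK shoots.

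Among iron-related members in shoots, bHLH100 was higher and the other 5 were neither. It stood at 28.1 TPM in LP shoots and 5.03 TPM in CK shoots, 5.58-fold higher (log2 ratio 2.27). bHLH47 had 41.1 and 22.7 TPM (0.83), and the longest bHLH121 contig 39.6 and 43.9 TPM. bHLH18 and bHLH25, which in Arabidopsis promote breakdown of the iron regulator FIT under jasmonate, were both higher, bHLH18 with 11.1 TPM in LP shoots and 2.43 TPM in CK shoots and bHLH25 with 12.4 TPM in LP shoots and 0 in CK shoots. These are contigs of 361 and 231 bp. ORG2, the close relative of bHLH100 that the databases name otherwise, stood at 12.1 TPM in LP shoots and was listed at 0 in CK shoots, and had 6.42 TPM in LP roots against 0.40 in CK roots.

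Jasmonate factors showed no call in shoots, where 0 of 6 were higher and 0 lower. The MYC2 contig of 1391 bp had 8.47 TPM in LP shoots and 15.4 TPM in CK shoots (log2 ratio -0.79), and the long one 135 and 166 TPM. Of the PIFs 1 of 6 was higher, PIF1 of 684 bp, with 24.4 TPM in LP shoots and 11.5 TPM in CK shoots (1.03, 0.91 when scaled and then short of the rule). PIF4 had 41.7 and 32.2 TPM and PIF7 37.6 and 38.0 TPM in LP and CK shoots. Vascular-type members split, with 2 of 11 higher and 2 lower. bHLH157 of 483 bp stood at 5.20 TPM in LP shoots and 0.14 TPM in CK shoots, and bHLH155 of 872 bp at 5.66 and 27.2 TPM.

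Members outside the role lists held 5 of the 13 higher and 3 of the 10 lower calls in shoots. Both bHLH123 contigs were higher: that of 571 bp had 7.18 TPM in LP shoots and 1.58 TPM in CK shoots, and that of 1559 bp 16.4 and 6.49 TPM. bHLH113 stood at 11.6 TPM in LP shoots and 4.22 TPM in CK shoots (log2 ratio 1.27). bHLH120 (234 bp, 10.9 TPM) and bHLH41 (425 bp, 7.82 TPM) were listed in LP shoots alone. Lower were bHLH110 of 985 bp, with 7.65 TPM in LP shoots and 20.4 TPM in CK shoots, bHLH110 of 293 bp with 1.49 and 10.8 TPM, and bHLH140 of 281 bp.

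Setting the organs side by side, 25 members were lower in LP roots and neither in shoots, 6 were lower in roots and higher in shoots, and 2 were higher in roots and lower in shoots. A single member, bHLH110 of 293 bp, was lower in both, and none was higher in both. The 6 were bHLH100, bHLH137, bHLH157 of 483 bp, bHLH130 of 2116 bp and both bHLH123 contigs. With 1 library per group the difference between organs was not tested. The same joint counts over plant-matched genes are not given here, so whether these are usual for the libraries cannot be said.

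**Figure D4:**
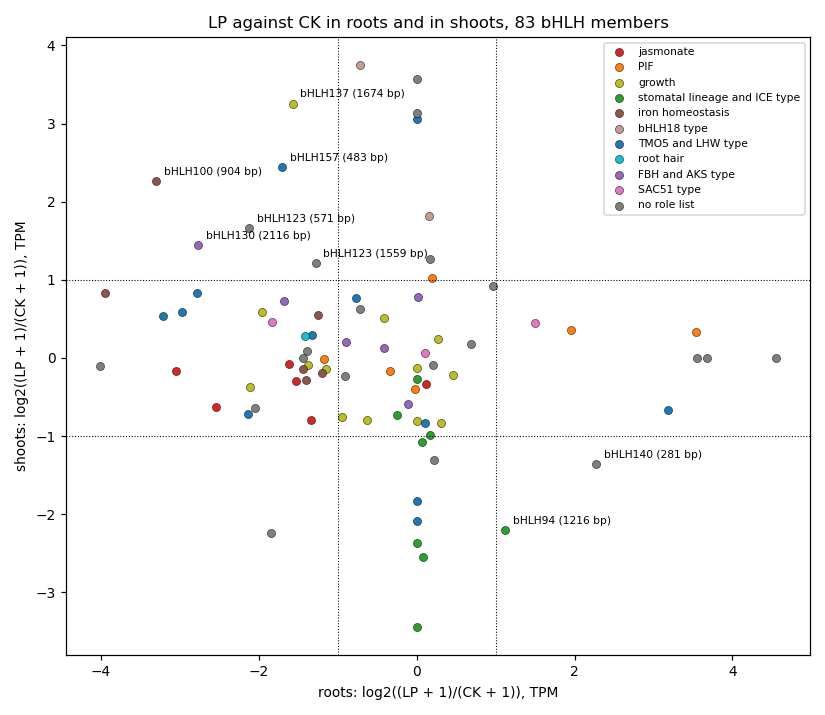
Log2 ratio of LP over CK (TPM with 1 added) in roots (horizontal) and in shoots (vertical) for the 83 members, coloured by role, with dotted lines at the size rule and names for the 8 members called in opposite directions. Most iron and jasmonate contigs lie left of -1 and within the rule vertically, and stomatal contigs lie at or below 0 in shoots.

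Roots were next set against shoots within each medium, where under CK the members' shares lay near those of plant-matched genes. Under CK, 18 of 76 members were higher in roots and 40 lower, or 23.7% and 52.6%, against 19.7% and 52.3% of plant-matched genes and 26.5% and 54.2% of all genes. Under LP, 10 of 82 were higher in roots and 55 lower, or 12.2% and 67.1%, against 17.3% and 55.4% of plant-matched genes and 41.7% and 37.5% of all genes. Scaling gave 14 higher and 43 lower, against 25.7% and 43.4% of plant-matched genes. All 6 PIF contigs and all 8 stomatal contigs were lower in CK roots than in CK shoots. PIF7 had 1.67 TPM in CK roots and 38.0 TPM in CK shoots, and PIF4 0.05 and 32.2 TPM. Root-rich under CK were bHLH68 of 1502 bp (204 TPM in CK roots, 45.7 in CK shoots), bHLH123 of 571 bp (73.0 and 1.58 TPM), bHLH111 (52.3 and 6.58 TPM) and bHLH110 of 218 bp (43.2 TPM in CK roots and 0 in CK shoots). That bHLH110 contig was named from Nr alone and had no listed domain. The assembly grouped it with the root marker Casparian strip membrane protein 1, so its name is in doubt. Under LP, bHLH111 (19.4 TPM in LP roots, 7.09 in LP shoots) and bHLH110 of 218 bp (15.4 TPM in LP roots, 0 in LP shoots) were also higher in roots. The organ comparisons of the 2 media were set side by side without a test.

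Further bHLH proteins under other names numbered 28 genes. Of the 18 that reached 1 TPM in roots, 6 were higher and 8 lower under LP, beside 35.7% and 35.3% of plant-matched genes; of the 26 in shoots, 2 were higher and 10 lower, beside 23.9% and 20.5%. ILR3, an iron-related factor, had 184 TPM in LP roots and 59.9 TPM in CK roots (log2 ratio 1.61), unlike the iron members above. LHW of 642 bp, which pairs with TMO5-type factors, had 0.41 TPM in LP roots and 67.9 TPM in CK roots, and 9.83 against 1.27 TPM in LP and CK shoots. The longer LHW contigs stayed within the rule in roots: that of 1886 bp had 46.9 TPM in LP roots and 51.15 TPM in CK roots, and that of 3231 bp 54.25 and 70.7 TPM. SAC51 stood at 46.0 TPM in LP roots and 16.0 TPM in CK roots (1.47), the same direction as its relative bHLH145.

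Proteins tied to bHLH factors were listed as well, and their counts stand beside the same plant-matched shares. Of the jasmonate partners (TIFY repressors, Ninja-family proteins and the receptor COI1), 11 reached 1 TPM in roots, where 3 were higher and 5 lower under LP, and 12 did in shoots, where 1 was higher and 3 lower. The 3 higher in LP roots were all Ninja-family AFP contigs, whose Arabidopsis namesakes bind the abscisic acid factor ABI5. TIFY 10A, a JAZ repressor that binds MYC2, was lower in both contigs, with 30.9 TPM in LP roots and 144 TPM in CK roots for that of 1976 bp and 0.62 and 67.8 TPM for that of 1154 bp. COI1 stayed within the rule at 133 TPM in LP roots and 154 TPM in CK roots. Of 8 phytochromes and DELLA proteins, which act on PIFs, 4 had lower and 1 had higher levels in LP roots, phytochrome C among the lower with 22.8 TPM in LP roots and 97.7 TPM in CK roots. Of 10 partners of the flavonoid and epidermal factors, only 2 reached 1 TPM in roots, 1 of them lower under LP; all 10 did in shoots, where 4 were lower and none higher. The iron list held 36 genes, 18 for uptake, chelation and storage and 18 of the BRUTUS type, ubiquitin ligases that act on iron bHLH factors. Of the 10 uptake, chelation and storage genes that reached 1 TPM in roots, 4 were higher and 3 lower under LP, and of 18 in shoots 5 were higher and 2 lower. Of the BRUTUS-type contigs 15 reached 1 TPM in roots, with 4 higher and 5 lower, and 14 in shoots, with 4 higher and 3 lower. Ferritin-2, an iron storage protein whose contig was 1159 bp long, had 479.7 TPM in LP roots and 82.9 TPM in CK roots (2.52).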

How the data were processed

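Poly(A) RNA of 1 root and 1 shoot library per medium was sequenced as read pairs, per the labels' protocols. Cutadapt 1.9 and FastQC are named in the submitters' processing notes; of assembler, aligner and quantifier, none is given in the sources used here. The deposited values are taken as TPM from the numbers themselves: all columns sum to nearly the same total, and the smallest step falls with contig length. Every gene in it reached at least 2.01 TPM in some library, so weaker genes are not covered. Ratios used a pseudocount of 1 TPM, which understates changes of low genes. Fragment steps came from single-transcript contigs within 20 bp of 400 bp; within 0.0065 TPM, 95.2% to 99.2% of low values were whole multiples, against 6.19% to 14.6% by chance. The error percentages given at 10 TPM cover counting error only. Scaling used the median of log2 ratios over plant-matched genes. Members, role lists, partner lists and the rule for named genes (per organ the 10 highest and 10 lowest calls, the 10 most abundant, opposite calls, and the most abundant of each role) were chosen with earlier results of these data known. Contigs without a call that stand beside called ones, and COI1, were named after their values were seen. No sequences were at hand, so none is shown. The calling step was tested on simulated data. Python 3.11.15 and pandas 2.3.3 were used.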

Additional observations from a re-analysis of the deposited data

Results flagged for a closer look

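In 8 members the LP and CK libraries differed past the size rule in opposite directions in roots and shoots; each group is 1 library, so the difference between organs was not tested. How often plant-matched genes differed in this way is not given here. The value given is the log2 ratio in roots minus that in shoots. It was -5.57 for bHLH100, -4.83 for bHLH137, -4.22 for bHLH130 of 2116 bp, -4.15 for bHLH157 of 483 bp, -3.78 for bHLH123 of 571 bp and -2.50 for bHLH123 of 1559 bp, all lower in LP roots and higher in LP shoots. It was 3.33 for bHLH94 of 1216 bp and 3.63 for bHLH140 of 281 bp, both higher in LP roots and lower in LP shoots. bHLH100 was listed at 0 in LP roots, and bHLH94 and bHLH140 were listed at 0 in CK roots, so their values depend on the pseudocount.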

How the results depend on the processing

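No paired analysis was possible because each comparison within an organ or a medium sets 1 library against 1; an additive fit of medium over both organs, which asks for a shared difference, was not run. In LP against CK roots, 34 lower members became 22 with either scaling, 13 at a log2 threshold of 2 and 22 among members with a helix-loop-helix or MYC domain (an alternative chosen after seeing the data). The 13 were 22.03% of the members tested, and 19.95% of plant-matched genes were lower at that threshold. The larger share of lower members at the threshold of 1 was thus nearly absent at 2. The 9 higher became 5 among contigs of at least 400 bp, 2 among members above 0 in both libraries and 2 among those with a domain. In shoots, the threshold of 2 left 7 higher and 6 lower, sums by protein name 8 and 4, and a domain left 6 lower. For CK roots against shoots, 18 higher became 7 at the threshold of 2, 9 by name and 10 with a domain, and 40 lower became 23 by name, 19 above 0 in both and 26 with a domain. For LP roots against shoots, 10 higher became 6 at the threshold of 2, 5 by name, 4 at 400 bp or more, 6 above 0 in both and 2 with a domain, and 55 lower became 36 by name and 36 with a domain. Domain, name, length and both-above-0 settings test fewer genes. A pseudocount of 0.1, no minimum, a minimum of 5 TPM and leaving out the 4 contigs with another domain kept these counts within 1.5 times. Of the members the naming rule gives in full, 35 were tested in roots and 43 in shoots, members without a call among them. Under scaling 5 of these lost a call in roots and none did in shoots, and none changed direction. PIF1 of 684 bp, outside them, lost its call in shoots. The loss over all members in roots was larger, as the fall to 22 lower members shows.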
